A study of Mus musculus with 12 samples.

Results

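The TRAV3 family of mouse T cell receptor alpha variable segments was described in T cells from brain tissue (parenchyma) and from the meninges, which enclose the brain. Its members are TRAV3-1, TRAV3-3 and TRAV3-4. They were found as all productive alpha contigs whose V label was TRAV3, TRAV3D or TRAV3N with a member number, the copy letter D or N being dropped. This gave 412 of 6482 productive alpha contigs, of which 34 were TRAV3-1, 334 TRAV3-3 and 44 TRAV3-4. The family was selected on measured values, its share of clonotypes in parenchyma and in meninges, so the shares by tissue are given as a description, without a test.

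Sorted CD45+ immune cells of C57BL/6 mice were profiled with a kit that marks each transcript by its cell and by its molecule, the latter with a unique molecular identifier (UMI), and amplifies receptor chains by PCR. The 5xFADTg mice carry transgenes for mutant human presenilin and amyloid precursor protein and develop amyloid plaques, and NonTg mice lack the transgenes. There were 2 libraries of NonTg parenchyma, 2 of 5xFADTg parenchyma, 1 of NonTg meninges and 1 of 5xFADTg meninges. The labels give neither age nor sex nor the number of animals per library, so p-values measure the spread between libraries, which may be technical. The libraries held 15827899 to 26710709 reads and 49997 to 128700 UMIs over their listed contigs. Of 7056 cells with a productive chain, 5207 had exactly 1 beta chain (TRB) together with 1 or more alpha chains (TRA), 349 to 1453 per library. Counted within each library, the paired cells formed 3108 clonotypes, a clonotype being one pair of alpha and beta CDR3 nucleotide sequences. Of the barcodes, 14 occurred in more than 1 library, 1 of them in a TRAV3 cell, and none with the same receptor. The matching gene expression libraries were not used here, so whether these cells were CD8+ or CD4+ T cells could not be read.

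An alpha chain is built in the thymus by joining one V segment to one J segment (TRAJ), with bases trimmed and added at the joint. The joint codes for the complementarity-determining region called CDR3, the loop that lies over the peptide, whereas the other loops that touch the MHC molecule are written in the V segment itself. The alpha locus can be rearranged again, with V segments farther from the J cluster and J segments deeper within it, until a working chain is made. V segments of this locus exist in near-identical copies in the mouse, marked D and N, which arose by duplication of a stretch of the locus.

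The second exons of the TRAV3 genes, which code for the variable domain, show how the members differ. They are given 5′ to 3′ on the + strand from the GENCODE M21 transcripts and annotation (GRCm38, the assembly named mm10). Capitals mark bases that differ from Trav3-3. Trav3-3 lies at chr14:53666216-53666506, Trav3d-3 at chr14:52972748-52973038, Trav3-1 at chr14:52580923-52581213 and Trav3-4 at chr14:53777286-53777576, and each stretch is exon 2 of its gene.
Trav3-3: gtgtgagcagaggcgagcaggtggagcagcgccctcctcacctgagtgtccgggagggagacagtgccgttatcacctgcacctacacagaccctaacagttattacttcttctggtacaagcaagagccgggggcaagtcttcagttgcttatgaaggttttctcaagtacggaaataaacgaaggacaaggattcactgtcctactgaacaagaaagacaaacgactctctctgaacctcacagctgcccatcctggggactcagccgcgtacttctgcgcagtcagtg
Trav3d-3: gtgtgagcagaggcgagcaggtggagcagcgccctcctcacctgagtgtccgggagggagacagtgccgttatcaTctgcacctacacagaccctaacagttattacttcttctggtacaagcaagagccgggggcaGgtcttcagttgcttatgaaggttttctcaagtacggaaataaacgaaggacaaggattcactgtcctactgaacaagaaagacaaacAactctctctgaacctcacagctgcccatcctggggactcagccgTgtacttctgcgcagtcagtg
Trav3-1: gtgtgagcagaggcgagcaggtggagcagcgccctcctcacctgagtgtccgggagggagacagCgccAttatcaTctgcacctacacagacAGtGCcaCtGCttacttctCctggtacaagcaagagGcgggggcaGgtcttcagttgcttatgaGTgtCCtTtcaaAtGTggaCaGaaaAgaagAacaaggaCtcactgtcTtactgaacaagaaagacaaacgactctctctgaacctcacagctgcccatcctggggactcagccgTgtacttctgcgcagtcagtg
Trav3-4: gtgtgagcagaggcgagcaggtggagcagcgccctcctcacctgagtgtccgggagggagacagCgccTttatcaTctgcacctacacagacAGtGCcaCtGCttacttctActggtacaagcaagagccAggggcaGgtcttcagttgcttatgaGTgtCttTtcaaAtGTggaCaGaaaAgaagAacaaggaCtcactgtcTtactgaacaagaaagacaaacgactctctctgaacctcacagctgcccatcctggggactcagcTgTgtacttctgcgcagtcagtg
Each exon is 291 bases long. Trav3d-3 differed from Trav3-3 at 4 bases, an identity of 98.6%. Trav3-1 and Trav3-4 each differed from Trav3-3 at 28 bases (90.4% identity) but from each other at only 6 (97.9%), although they lie at opposite ends of the family. All 4 exons end in the same 13 bases, tgcgcagtcagtg, which open the CDR3 and read Cys-Ala-Val-Ser in full codons. Another copy, Trav3n-3 at chr14:53283885-53284175, had 0 differences from Trav3d-3, so the exon cannot tell these copies apart. In the deposited calls 230 of the TRAV3-3 contigs carried the label TRAV3D-3 and 104 the label TRAV3-3, and 0 carried TRAV3N-3. Over clonotypes TRAV3D-3 made up 57.1 to 75.0% of the TRAV3-3 clonotypes of a library. The copies are pooled as TRAV3-3 below unless a label is given.

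The 412 contigs came from 409 cells, 3 of which had a pair of TRAV3 chains. Of these cells 14 had no TRB, 29 had 2 or more TRB, which can mark doublets, and in 29 TRAV3 was the alpha chain with fewer UMIs. The remaining 337 cells formed 203 TRAV3 clonotypes, 15 of TRAV3-1, 176 of TRAV3-3 and 12 of TRAV3-4. The median over TRAV3 contigs was 42.5 UMIs, against 38 over the other productive alpha contigs.

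TRAV3 clonotypes were a larger part of the parenchymal than of the meningeal repertoire. In NonTg parenchyma 39 of 606 clonotypes of library 1 used TRAV3 (6.44%, 95% exact binomial interval 4.62 to 8.69) and 35 of 449 of library 2 (7.80%, 5.49 to 10.7). In 5xFADTg parenchyma 46 of 657 clonotypes of library 1 used it (7.0%, 5.17 to 9.23) and 55 of 784 of library 2 (7.02%, 5.33 to 9.03). The meninges held 14 of 286 in NonTg (4.90%, 2.70 to 8.08) and 14 of 326 in 5xFADTg (4.29%, 2.37 to 7.10). All 4 parenchyma libraries lay above both meninges libraries, at a mean of 7.06% ± 0.558 (SD, n = 4) against 4.59% ± 0.425 (SD, n = 2), while the intervals of single libraries overlapped. Such intervals cover counting error only.

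The order did not hold when cells were counted in place of clonotypes. TRAV3 cells made up 6.52% ± 1.41 of paired parenchymal cells (SD, n = 4) and 5.87% ± 1.42 of paired meningeal cells (SD, n = 2). The NonTg meninges, with 24 TRAV3 cells of 349 (6.88%), then lay above 3 of the parenchyma libraries. Without the clonotypes found in both tissues the shares of clonotypes were 7.0% and 3.73%. The parenchyma libraries ranged from 5.09 to 8.47% over cells, and the meninges libraries were at 4.86 and 6.88%.

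**Figure D1:**
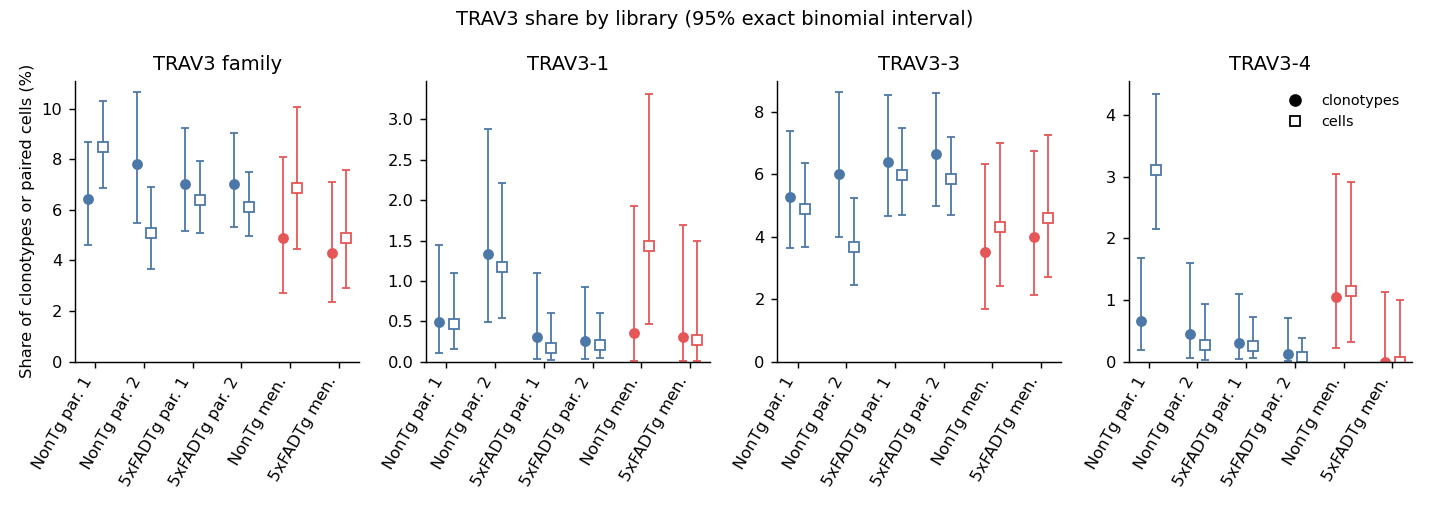
Share of TRAV3 and of each member (%) in each library, over clonotypes (filled circles) and over paired cells (open squares), with 95% exact binomial intervals; blue is parenchyma and red meninges. The family's clonotype shares in parenchyma sit between 6.44 and 7.80%, above both meninges values, whereas the cell shares of the tissues overlap.

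TRAV3-3 carried the pattern. It made up 6.08% ± 0.591 of parenchymal (SD, n = 4) and 3.74% ± 0.347 of meningeal clonotypes (SD, n = 2), with library values of 5.28, 6.01, 6.39 and 6.63% in parenchyma and 3.50 and 3.99% in meninges. It was the most used of 48 TRAV segments over all libraries. In the parenchyma it ranked 3 and 2 in the NonTg and 1 and 2 in the 5xFADTg libraries, and in the meninges 11 and 6. TRAV3-1 ranked 41 of 48 and TRAV3-4 ranked 43. TRAV3-1 was found in all 6 libraries, at 1 to 6 clonotypes each. TRAV3-4 was found at 1 to 4 clonotypes in 5 libraries and in 0 of 326 clonotypes of the 5xFADTg meninges, a count that allows at most 0.920%. The TRAV segments whose library shares were most like those of TRAV3-3, of 43 others with at least 10 clonotypes, were TRAV6-6 (Pearson r = 0.85), TRAV12-2 (0.83) and TRAV5-4 (0.61). All 4 parenchyma libraries also lay above both meninges libraries for TRAV6-6 (4.87 to 5.99% against 4.20 and 3.99%). The same held for TRAV12-2 (5.36 to 5.78% against 4.90 and 4.91%), but not for TRAV5-4 (1.56 to 3.44% against 2.10 and 1.53%). The order is thus not particular to TRAV3-3. These are descriptions over 6 libraries, whose shares add up to the same whole.

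Rearrangements that did not give a working chain were also listed. TRAV3 made up 90 of 1851 nonproductive contigs with a TRAV label (4.86%). In parenchyma the share was 4.02 to 5.82%. In the NonTg meninges it was 12 of 128 (9.38%) and in the 5xFADTg meninges 1 of 99 (1.01%). Neither meninges library lay within the range of the parenchyma libraries, and they lay on opposite sides of it. These are counts of contigs and not of clonotypes, so cells of the same clone can add the same rearrangement repeatedly.

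The genotypes were compared over parenchymal clonotypes with edgeR's quasi-likelihood test across 118 V and J segments of both chains, of which 0 passed an adjusted p of 0.05 (0%; 6 had an unadjusted p under 0.05). DESeq2 also called 0. TRAV3-3 was used by 94 of 1441 clonotypes in 5xFADTg and 59 of 1055 in NonTg, a log2 fold change of 0.22 (SE 0.20, edgeR adjusted p = 0.95). Both 5xFADTg libraries had a higher share than both NonTg libraries. TRAV3-1 had 4 clonotypes in 5xFADTg and 9 in NonTg, a log2 fold change of -1.56 (SE 0.92, edgeR adjusted p = 0.88). TRAV3-4, with 3 and 6 parenchymal clonotypes, had too few for the test. Counted as cells, TRAV3-4 had 4 cells in 5xFADTg and 35 in NonTg (log2 fold change -3.40, edgeR adjusted p = 0.059). By library these were 3 and 1 cells in 5xFADTg and 33 and 2 in NonTg, so the value rests on NonTg parenchyma 1. Of its 33 cells 22 belonged to 1 clone.

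Clonal expansion was compared as clonotypes of 2 or more cells against clonotypes of 1 cell, with library as a block, over 120 segments. Of the TRAV3 clonotypes 36 of 203 were expanded (17.7%, 95% exact binomial interval 12.7 to 23.7) and of the others 388 of 2905 (13.4%, 12.1 to 14.6). By library the TRAV3 share was 23.1 and 5.71% in NonTg parenchyma, 13.0 and 23.6% in 5xFADTg parenchyma, 28.6% in NonTg meninges and 14.3% in 5xFADTg meninges. The other clonotypes were expanded to 14.5, 14.7, 14.1, 16.2, 9.19 and 5.13% in the same order. TRAV3 was higher in 4 of the 6 libraries, both meninges among them, where 4 of 14 and 2 of 14 clonotypes were expanded. By member 4 of 15 TRAV3-1, 27 of 176 TRAV3-3 and 5 of 12 TRAV3-4 clonotypes were expanded. These were 14, 170 and 10 distinct receptors, and a receptor expanded in parenchyma and in meninges counts in each library. Examples are TRAV3-1 with TRAJ21 (4 cells in NonTg parenchyma 2, 5 in NonTg meninges) and TRAV3-4 with TRAJ56 (22 in NonTg parenchyma 1, 2 in NonTg meninges). The fit takes such repeats as separate clonotypes. Of the 3 members 0 passed the threshold with edgeR or DESeq2, where 2.5% of all segments did with edgeR and 1 of 120 with DESeq2. With edgeR 1 member had an unadjusted p under 0.05, and over all segments 13 of 120 did. TRAV3-4 had a log2 fold change of 2.0 (SE 0.81, edgeR adjusted p = 0.29), TRAV3-1 of 1.12 (SE 0.83, edgeR adjusted p = 0.71) and TRAV3-3 of 0.14 (SE 0.31, edgeR adjusted p = 0.92). The value of TRAV3-3 lay below 0 with TMM factors (-0.12), where the median of all segments moved by -0.30.

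**Figure D2:**
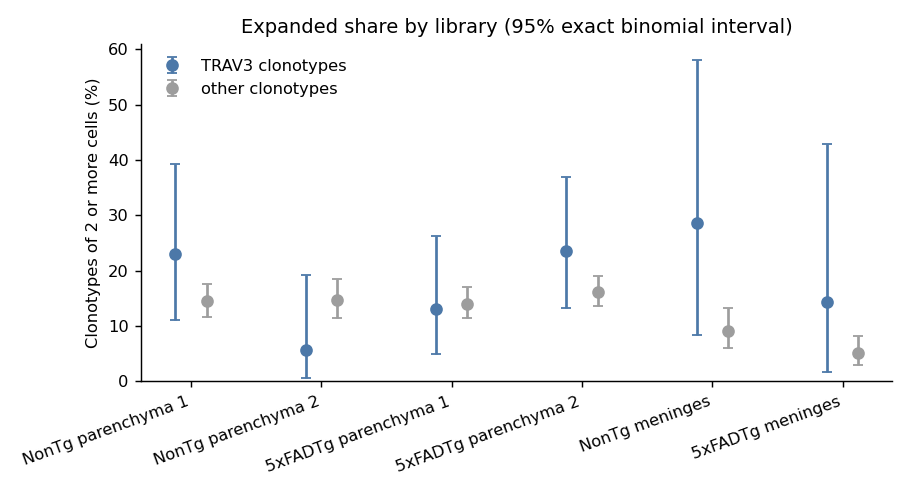
Share of clonotypes with 2 or more cells (%) among TRAV3 (blue) and all other clonotypes (grey) in each library, with 95% exact binomial intervals. TRAV3 lies above the others in 4 of 6 libraries, and in NonTg parenchyma 2 below them.

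**Figure D3:**
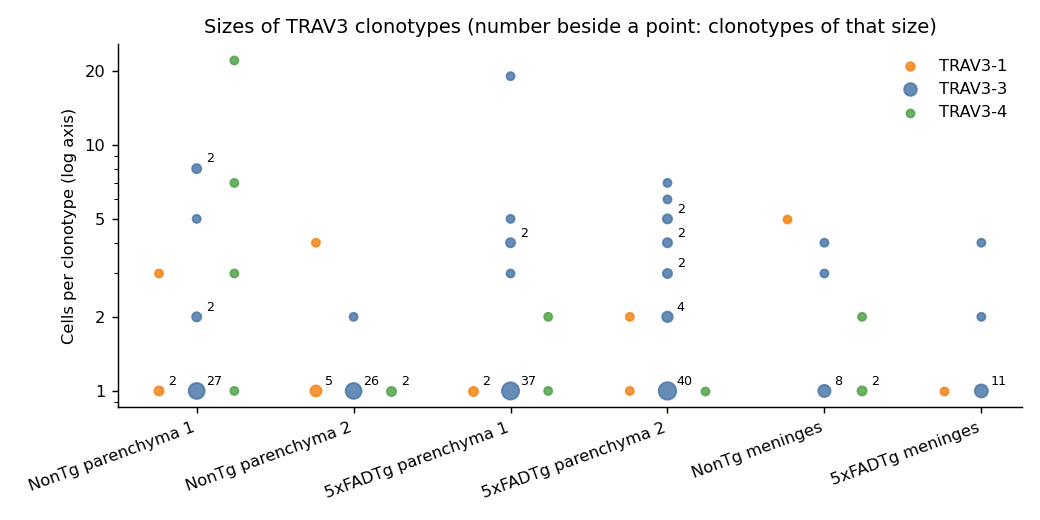
Cells per TRAV3 clonotype on a log axis, by library and member; a number beside a point counts the clonotypes of that size. Most clonotypes have 1 cell, and the largest have 22 cells (TRAV3-4, NonTg parenchyma 1) and 19 cells (TRAV3-3, 5xFADTg parenchyma 1).

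Of the 12 TRAV3 receptors that reached 5 or more cells in a library, 4 were found in both tissues. A matching count for receptors with other alpha chains is not given here. The joints of 5 of the 12 are shown, picked so that each member appears. The alpha CDR3 nucleotide sequences below start with the V bases and end with the J bases, both in lower case, and capitals mark bases that match neither germline end.
TRAV3-4 with TRAJ56, 22 cells of NonTg parenchyma 1: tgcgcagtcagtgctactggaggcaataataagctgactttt
TRAV3D-3 with TRAJ11, 19 cells of 5xFADTg parenchyma 1: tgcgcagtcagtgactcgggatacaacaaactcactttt
TRAV3D-3 with TRAJ31, 8 cells of NonTg parenchyma 1: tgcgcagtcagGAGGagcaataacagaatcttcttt
TRAV3-1 with TRAJ21, 4 cells of NonTg parenchyma 2 and 5 of NonTg meninges: tgcgcatctaattacaacgtgctttacttc
TRAV3-4 with TRAJ57, 7 cells of NonTg parenchyma 1: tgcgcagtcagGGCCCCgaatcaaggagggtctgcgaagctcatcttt
The 22-cell clone held 2.07% of the paired cells of its library. Its alpha chain had 0 inserted bases, and its beta chain (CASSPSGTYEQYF) used TRBV12-2 and TRBJ2-7. The 19-cell clone also had 0 inserted bases in its alpha chain (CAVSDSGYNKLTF), with the beta chain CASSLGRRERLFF of TRBV3 and TRBJ1-4, and held 1.58% of its library's cells. The TRAJ31 clone (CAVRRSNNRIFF) paired with the TRBV3 chain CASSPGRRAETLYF. Of the 5 shown, the 19-cell clone and the 7-cell TRAV3-4 clone were found in 1 tissue.

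Of the 194 distinct TRAV3 receptors 9 were found in parenchyma and in meninges, 0 across genotypes and 0 in both parenchyma libraries of a genotype. Such counts of distinct receptors are not given here for other alpha chains, so they cannot be read as particular to TRAV3. The 22-cell clone had 2 more cells in the NonTg meninges, and the TRAJ31 clone had 1. The TRAV3-1 clone with TRAJ21 (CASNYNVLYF) and a TRBV14 beta chain was the largest TRAV3 clone of the NonTg meninges, at 5 cells. In the NonTg meninges 7 of 14 TRAV3 clonotypes (50.0%, 95% exact binomial interval 23.0 to 77.0) were also found in the parenchyma, against 59 of 272 others (21.7%, 16.9 to 27.1). In the 5xFADTg meninges it was 2 of 14 (14.3%, 1.78 to 42.8) against 42 of 312 (13.5%, 9.88 to 17.8). Counted from the parenchyma, 6 of 39 TRAV3 clonotypes of NonTg library 1 were found in the meninges (15.4%, against 7.23% of the others). In the other 3 parenchyma libraries the TRAV3 share, 1 clonotype each, was 2.86, 2.17 and 1.82%, below the 4.35, 4.09 and 2.33% of the others. With 1 library per genotype the difference between the genotypes has no replicate check.

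Among TRAV3 chains the alpha CDR3 found in most libraries was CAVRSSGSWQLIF, made of TRAV3-3 or TRAV3D-3 and TRAJ22. It occurred in 9 clonotypes and 31 paired cells of 4 libraries, and in 0 clonotypes with another V segment. It was written by 3 nucleotide sequences, given here because the commonest needs no inserted base.
23 cells, 6 clonotypes, 4 libraries: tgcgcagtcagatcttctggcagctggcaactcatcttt
6 cells, 1 clonotype, 1 library: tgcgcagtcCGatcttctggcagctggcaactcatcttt
2 cells, 2 clonotypes, 2 libraries: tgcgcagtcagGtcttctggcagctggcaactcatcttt
5xFADTg parenchyma 2 held 5 of the clonotypes and 18 cells (1.24% of its paired cells), NonTg parenchyma 1 held 8 cells, the NonTg meninges 3 and NonTg parenchyma 2 held 2. It was found in 0 of 1206 cells of 5xFADTg parenchyma 1 and 0 of 370 of the 5xFADTg meninges, where 3 counts would be 0.249% and 0.811%. Of the 9 clonotypes 6 were expanded and 6 used TRBV29. In all 9 the beta CDR3 was 12 residues long, a length found in 26 of the 194 other TRAV3 clonotypes (13.4%) and in 10.9% of all clonotypes. They ended in TRBJ2-5 in 4, TRBJ2-3 in 3 and TRBJ1-4 in 2 clonotypes, and some differed at few residues, such as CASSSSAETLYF and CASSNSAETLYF, or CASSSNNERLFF and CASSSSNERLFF. The receptor with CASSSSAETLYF was the clone shared by NonTg parenchyma 1 (8 cells) and the NonTg meninges (3 cells). It is counted in both libraries, so the 9 clonotypes were 8 distinct receptors. The counts of expanded, TRBV29 and TRBJ2-3 clonotypes include it in both libraries as well. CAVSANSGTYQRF was found in 3 clonotypes of 3 libraries, and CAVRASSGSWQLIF, also of TRAJ22, in 4 clonotypes of 3 libraries, 2 of which, in NonTg parenchyma 1 (3 and 1 cells), had beta CDR3s that differed by 1 base.

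Partner segments were compared between the 203 TRAV3 and the 2905 other clonotypes with library as a block, over 76 TRAJ, TRBV and TRBJ segments, of which 1 passed the threshold (1.32%). TRAJ18, the J segment of the invariant alpha chain of natural killer T (iNKT) cells, was joined in 2 of 203 TRAV3 clonotypes (0.985%) and 204 of 2905 others (7.02%), a log2 fold change of -2.71 (SE 0.76, edgeR adjusted p = 0.030). It was lower with TRAV3 in 6 of 6 libraries. The iNKT chain joins TRAJ18 to TRAV11, and the MAIT chain joins TRAJ33 to TRAV1. Without iNKT-like and MAIT-like receptors the TRAJ18 value was -0.52 (SE 0.94, edgeR adjusted p = 0.90), and 0 segments passed (8 had an unadjusted p under 0.05). With DESeq2 on all clonotypes 0 segments passed, and 5 had an unadjusted p below 0.05. The call was also lost without NonTg parenchyma 1, 5xFADTg parenchyma 1, 5xFADTg parenchyma 2 or the NonTg meninges (edgeR adjusted p = 0.23, 0.084, 0.43 and 0.074), with log2 fold changes of -2.51, -2.46, -2.06 and -2.61. Over all 6 libraries left out in turn the log2 fold change ran from -3.49 to -2.06.

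The next segments did not pass the threshold. TRAJ22 was joined in 23 of 203 TRAV3 clonotypes (11.3%) and 163 of 2905 others (5.61%), higher in 5 of 6 libraries (log2 fold change 0.99, SE 0.38, edgeR adjusted p = 0.17). Of these 23 clonotypes 9 carried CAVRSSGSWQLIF and 14 another alpha CDR3. In the NonTg meninges TRAJ22 was joined in 1 of 14 TRAV3 clonotypes, a receptor also counted in NonTg parenchyma 1. These libraries are therefore not independent for TRAJ22. TRAJ7 was joined in 11 (5.42%) against 54 (1.86%), at an edgeR adjusted p of 0.17. TRAJ43 was found in 0 of 203 TRAV3 clonotypes and 55 of 2905 others (1.89%), which is at least 1.28-fold lower against a floor of 3 counts over the group. TRBV29 was paired with 19 TRAV3 clonotypes (9.36%) against 153 others (5.27%), higher in 6 of 6 libraries (edgeR adjusted p = 0.34), and 6 of the 19 carried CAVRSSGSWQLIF. In each meninges library this was 1 of 14 TRAV3 clonotypes, a receptor also counted in a parenchyma library of the same genotype. The 6 libraries are therefore not independent on this point. TRBV3 was paired with 26 (12.8%) against 230 (7.92%), higher in 5 of 6 libraries, with 5 of 14 in the 5xFADTg meninges (edgeR adjusted p = 0.34). TRBV14 was paired with 12 (5.91%) against 80 (2.75%) and the joint label TRBV12-2+TRBV13-2 with 12 (5.91%) against 326 (11.2%), both at an edgeR adjusted p of 0.34. Without iNKT-like and MAIT-like receptors the joint label had 12 of 203 against 250 of 2717. Its log2 fold change was then -0.62 (SE 0.44, edgeR adjusted p = 0.60), against -0.90 with them. TRBJ1-6 was found in 1 TRAV3 clonotype and 88 others (edgeR adjusted p = 0.27). Of the TRBJ segments TRBJ2-7 (33 TRAV3 clonotypes), TRBJ2-5 (30), TRBJ2-1 (27) and TRBJ2-3 (25) were used most, with edgeR adjusted p of 0.80, 0.58, 0.90 and 0.34. TRAJ21, TRAJ31, TRAJ23, TRBV13-3 and TRBV16, which complete the 5 most used TRAJ and the 5 most used TRBV partners, had 10 to 16 TRAV3 clonotypes each and edgeR adjusted p of 0.41 to 0.97. All edgeR values of partner segments move by a median of -0.43 (log2) with TMM factors.

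**Figure D4:**
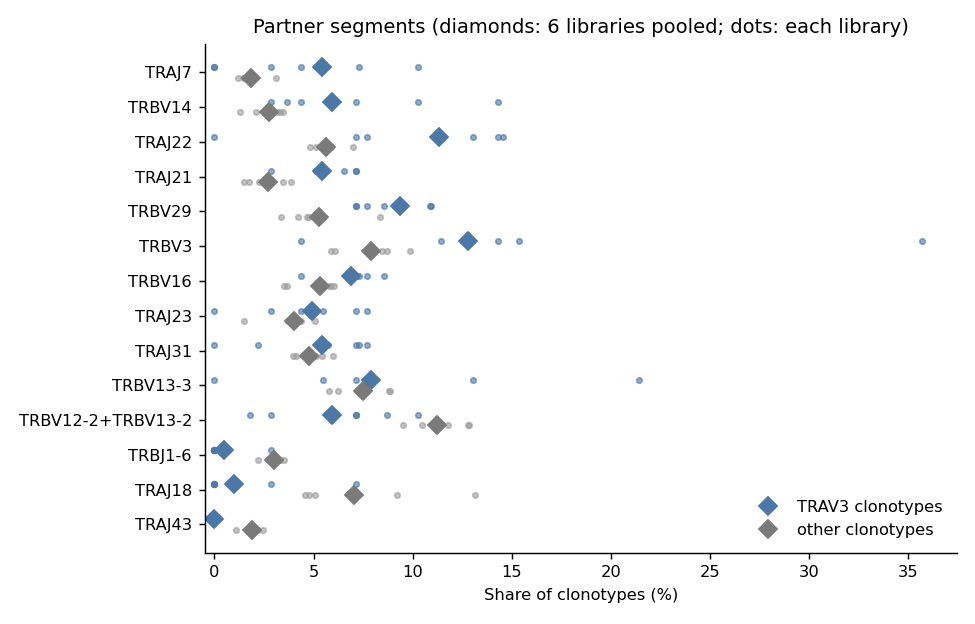
Share of clonotypes (%) with each named partner segment among TRAV3 (blue) and other (grey) clonotypes; diamonds pool the 6 libraries and dots show each library. TRAJ43, TRBJ1-6 and TRAJ18 have the lowest TRAV3 shares, and TRAJ22, TRBV29 and TRBV3 lie to the right of the grey diamonds.

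The members differed in how far along the J cluster they joined, and so did the copies of TRAV3-3. For this description each deposited label was placed at its own gene, with D and N copies apart, which gave 76 TRAV labels of at least 10 clonotypes. TRAV3-4 lies 377 kb, TRAV3-3 488 kb, TRAV3D-3 1182 kb and TRAV3-1 1574 kb before the first annotated TRAJ, at places 4, 13, 50 and 74 counted from the nearest. The gene Trav3n-3, whose exon equals that of Trav3d-3, lies 871 kb before it, so the position of chains labelled TRAV3D-3 is that of the label.

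The 12 TRAV3-4 clonotypes, of 10 distinct receptors, used TRAJ34 to TRAJ58, the side of the cluster nearest to the V segments, with a mean TRAJ number of 47.4. The 57 TRAV3-3 clonotypes had a mean of 35.3 and ranged from TRAJ4 to TRAJ57. The 119 TRAV3D-3 clonotypes had a mean of 20.5 and ranged from TRAJ2 to TRAJ49. The 15 TRAV3-1 clonotypes had a mean of 27.3 and ranged from TRAJ17 to TRAJ44. Ranked from the highest mean TRAJ number of 76 labels, these are ranks 4, 16, 72 and 37.

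The copies kept this order in every library. In NonTg parenchyma the mean TRAJ number was 32.9 and 37.0 for TRAV3-3 against 17.5 and 26.8 for TRAV3D-3. In 5xFADTg parenchyma it was 32.9 and 34.3 against 17.7 and 20.1. In the meninges it was 44.7 against 24.7 in NonTg and 42.6 against 21.4 in 5xFADTg, over 3 to 8 clonotypes per label. TRAV3-3 thus lay above TRAV3D-3 in 6 of 6 libraries. Across the 76 labels distance and mean TRAJ number had a Pearson r of -0.69 and a Spearman rho of -0.66, given as a description, since all labels share the same libraries. TRAV3-1 lies farthest away of the 4 labels but had a higher mean than TRAV3D-3.

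**Figure D5:**
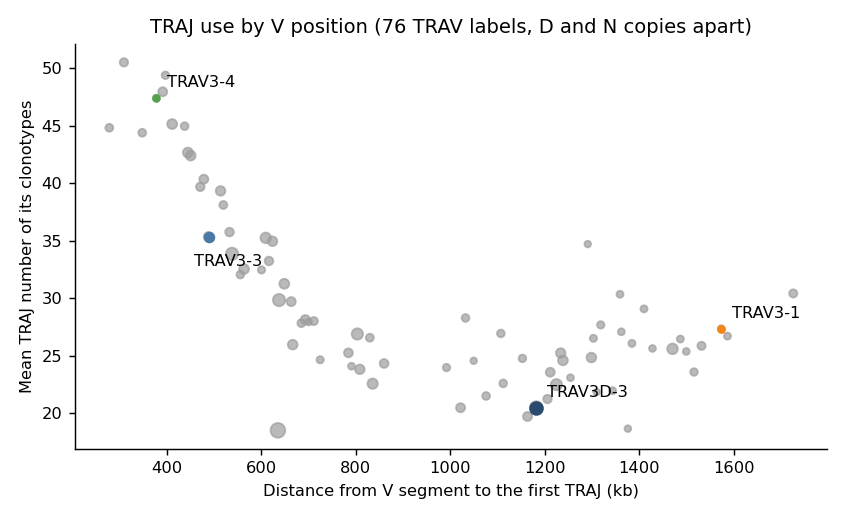
Mean TRAJ number of the clonotypes of each of 76 TRAV labels, D and N copies apart, against the distance of its gene to the first TRAJ (kb); point size grows with the number of clonotypes. TRAV3-4 sits at the top left with a mean of 47.4, TRAV3-3 follows at 35.3, and TRAV3D-3 (20.5) and TRAV3-1 (27.3) lie far from the J cluster.

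The alpha CDR3 of TRAV3 chains began with the germline residues CAVS in 101 of 203 clonotypes (49.8%) and CAVR in 49 (24.1%), against 7.06% and 2.58% of the other clonotypes. A median of 3 bases, ranging from 0 to 9, matched neither germline end, and 32 of 203 TRAV3 clonotypes (15.8%) had 0 such bases. By member that was 3 of 15 for TRAV3-1, 23 of 176 for TRAV3-3 and 6 of 12 for TRAV3-4. Counts of 0 can include bases that the germline happens to share. Alpha CDR3s were 13.6 ± 1.20 residues long for TRAV3-3 (SD over 176 clonotypes), 12.9 ± 1.41 for TRAV3-1 and 13.7 ± 0.985 for TRAV3-4, against 13.7 ± 1.43 for other chains. TRAV3-3 was shorter than the other chains in 5 of 6 libraries, by 0.144 residues in the fit across 37 segments (SE 0.0881, limma adjusted p = 0.16), where 51.4% of the segments passed the threshold. TRAV3-1 and TRAV3-4 had fewer than 20 clonotypes and were not tested. Neither the beta CDR3 length of TRAV3-3 clonotypes (limma adjusted p = 0.85, where 2.70% of the segments passed) nor the UMIs of their alpha chain (limma adjusted p = 0.90, 0%) passed it.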

How the data were processed

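Receptor libraries of 6 samples were used, and the 6 gene expression samples were not used here. Per the submitters' processing notes the authors used Cell Ranger 6.0 and the mouse build mm10. The deposited contig lists give V, J and CDR3 calls with raw read and UMI counts without any scaling, per the file headers. How cells and contigs were filtered is not given in the sources used here.

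A clonotype was, per library, the CDR3 nucleotide pair of the TRB and the TRA with most UMIs, in cells with exactly 1 productive TRB. No doublet caller was run. The letters D and N and a joint delta name were dropped from TRAV labels. Clonotypes per segment (at least 10) were tested with edgeR 4.0.16 (quasi-likelihood, the number of clonotypes as library size, Benjamini-Hochberg adjustment over all segments, threshold 0.05). Genotype was tested in parenchyma, and expansion and partner segments with library as a block. CDR3 lengths and UMIs of segments with at least 20 clonotypes were tested as differences from the other chains of a library with limma 3.58.1. R 4.3.3, DESeq2 1.42.0, scipy 1.17.1, numpy 2.4.6, pandas 2.3.3 and matplotlib 3.10.9 (Python 3.11.15) were used, and the fits were tested on simulated counts. Intervals are 95% exact binomial, and 3 counts were the limit beside a count of 0; reads within a UMI are not independent molecules. iNKT-like and MAIT-like receptors were set by their V and J labels.

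The members, the lists and the rule for named items were chosen with earlier results of these data known. Named were all members and copies, partner segments past the threshold, the 5 TRAJ and 5 TRBV with most TRAV3 clonotypes, the 3 smallest p in each direction, the 2 largest clonotypes of a library, up to 10 found in both tissues and up to 5 recurrent alpha chains. The 7-cell TRAV3-4 clone, the TRBJ segments and the beta lengths were chosen after their values were seen, and placing each V label at its own gene was added after the data were seen. Germline sequences and positions came from GENCODE M21 (GRCm38). Inserted bases were those matching neither the V end nor the J end. Alternatives were TMM factors, DESeq2, no count filter, cells, 2 UMIs, copies kept apart, a replicate block, expansion from 3 cells, leaving out iNKT-like and MAIT-like receptors or shared clonotypes, parenchyma only, TRAV3-3 alone, no weights and each library left out.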

Additional observations from a re-analysis of the deposited data

Results flagged for a closer look

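The share of TRAJ7 among TRAV3 clonotypes minus that among other clonotypes was above 0 in all 4 parenchyma libraries and below 0 in both meninges libraries. Its mean was 4.29 percentage points in parenchyma and -1.54 in meninges, a difference of -5.82 points between the tissues. TRAJ7 was found in 4 of 39, 1 of 35, 2 of 46 and 4 of 55 TRAV3 clonotypes of the parenchyma libraries and in 0 of 14 of each meninges library. With 0 of 14, the value of a meninges library lies below 0 whenever any other clonotype of that library uses TRAJ7. So few TRAV3 clonotypes cannot tell an absence of TRAJ7 in meninges from a share like that in parenchyma. The values therefore do not show a reversal between the tissues. The difference between the tissues was not tested.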

How the results depend on the processing

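No TRAV3 segment passed the genotype or the expansion threshold under any alternative run (edgeR and DESeq2), and the TRAV3-3 alpha length difference kept its direction and its side of the threshold in all 10. The number of partner segments called fell from 1 to 0 with DESeq2, over cells, with 2 UMIs, without iNKT-like and MAIT-like receptors and with TRAV3-3 alone, and was 0 to 1 over the libraries left out. The difference in TRAV3 share between parenchyma and meninges was 2.47 points over clonotypes, 0.646 over cells, 0.917 over contigs and 3.27 without clonotypes found in both tissues, and 2.17 to 2.77 over the libraries left out. Its cause was not tested. The log2 values that changed sign, none of them past the threshold, were TRAV3-3 expansion (-0.12 with TMM factors, -0.14 over cells), TRAJ31 (-0.25 with TMM factors, -0.16 over cells), TRAJ23 (-0.18 with TMM factors), TRBV16 (-0.076 with TMM factors) and TRBV13-3 (-0.38 with TMM factors, -0.41 over cells, -0.14 in parenchyma only). Over the libraries left out TRAV3-3 expansion ran from -0.13 to 0.36, TRAJ31 from -0.068 to 0.38, TRBV13-3 from -0.15 to 0.35 and the beta length of TRAV3-3 clonotypes from -0.10 to 0.052 residues. The UMI value of TRAV3-3 was -0.035 without weights and -0.0032 with 2 UMIs. The share difference of TRAV3-1 was -0.347 points over cells and -0.13 over contigs. That of TRAV3-4 was 0.348 over cells, 0.292 over contigs and 0.0893 without shared clonotypes, and ran from -0.665 to 0.384 over the libraries left out. TRAV3-4 was below the count filter in some fits and has no value there.

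With the replicate number as a block the genotype comparison called 0 TRAV3 segments, with log2 values of 0.21 for TRAV3-3 and -1.65 for TRAV3-1. The labels give the same-numbered libraries a common number and nothing on whether they were processed together. The correlation of their deviations was 0.078 over 118 segments. Whether they share a batch was not tested. The number of clonotypes limits what TRAV3-1, TRAV3-4 and the meninges, with 14 TRAV3 clonotypes per library, can show.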

Other observations

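Among TRBV3 clonotypes, a pair of neighbouring arginines (RR) in the beta CDR3 was found in 10 of 26 with a TRAV3 alpha chain (38.5%, 95% exact binomial interval 20.2 to 59.4) and in 39 of 230 with another alpha chain (17.0%, 12.3 to 22.4). With other TRBV segments the shares were 4 of 177 (2.26%) and 48 of 2675 (1.79%). The 19-cell TRAV3D-3 clone of 5xFADTg parenchyma 1 and the 8-cell TRAJ31 clone of NonTg parenchyma 1 are among the 10. The TRAJ31 receptor is counted in NonTg parenchyma 1 and again in the NonTg meninges; over distinct receptors the counts were 9 of 25 and 38 of 218. In NonTg parenchyma 1 of 6 and 0 of 4 TRAV3 clonotypes had RR against 7 of 44 and 1 of 36 others, and in 5xFADTg parenchyma 1 of 2 and 3 of 7 against 12 of 36 and 14 of 72. In the meninges it was 2 of 2 against 1 of 23 in NonTg and 3 of 5 against 4 of 19 in 5xFADTg, so 5 of the 10 came from 7 meningeal clonotypes. The pattern was noticed in these data and was not tested.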
